A study of Mus musculus with 2 samples.

Results

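The cells described here are pharyngeal mesoderm cells of the mouse embryo, selected on their own transcripts from 2 single-cell RNA-seq libraries. A cell was taken when it carried transcripts of at least 2 of the 5 genes Tbx1, Msc, Tcf21, Lhx2 and Myf5, none of Foxf1, Nkx6-1, Barx1, Epcam, Upk3b and Wt1, and less than 0.5% of its transcripts from the 6 sarcomere genes Actc1, Tnnt2, Myl7, Myl4, Tnnc1 and Tnni1. Cells also had to show at least 400 genes and at most 10% mitochondrial transcripts. Of the 8972 cells that passed these last filters, 86 met the rule, 29 of 4038 in replicate 1 and 57 of 4934 in replicate 2. The share was 0.718% in replicate 1 and 1.16% in replicate 2, with exact 95% binomial intervals of 0.481% to 1.03% and 0.876% to 1.49%, or 0.937% ± 0.309 (SD, n = 2).

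Both libraries were made by Drop-seq, in which single cells are caught in droplets with barcoded beads and each captured polyadenylated transcript is counted once by its molecular identifier (UMI). Embryos were of the CD1 mouse strain, wild type, and E10.0 in age. The heart tube was dissected from them together with the posterior second heart field, and roughly 80 embryos went into each pool. The libraries are biological replicates of 1 group that were processed on different days, and there was no mutant or treated group. Every comparison below is therefore between populations of cells within the same 2 libraries: pharyngeal mesoderm set against splanchnic mesoderm, ectomesenchyme, paraxial mesoderm and cardiomyocytes, and, within pharyngeal mesoderm, cells with a Tbx1 UMI set against cells without one.

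Pharyngeal mesoderm fills the core of the pharyngeal arches, wrapped by cranial neural crest and next to the foregut endoderm. In the mouse it gives rise to head and neck muscles and, through the second heart field, to the outflow tract and part of the venous pole of the heart, so that branchiomeric muscle and heart share progenitors. Tbx1 is a T-box transcription factor of these progenitors whose human orthologue lies in the region deleted in DiGeorge syndrome, Tcf21 (capsulin) and Msc (musculin) are related basic helix-loop-helix factors of head muscle precursors, Lhx2 is a LIM homeobox factor active with them, and Myf5 is a myogenic determination factor.

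The reference populations were also gated. Splanchnic mesoderm, the foregut-facing layer that includes the posterior second heart field, was taken by at least 2 of Foxf1, Tbx5, Osr1, Nkx6-1 and Barx1 (197 cells in replicate 1 and 184 in replicate 2). Ectomesenchyme, the neural crest mesenchyme of the arches, was taken by at least 2 of Dlx1, Dlx2, Dlx5 and Dlx6 (19 and 88 cells), and paraxial mesoderm, the somite-forming tissue, by at least 2 of Meox1, Meox2, Tcf15 and Pax3 (73 and 36 cells). Cells with at least 2% of their transcripts from the 6 sarcomere genes were taken as cardiomyocytes (75 and 156 cells). The UMIs of each population were summed per library, and levels are given as CPM, UMIs of the gene per 1e6 UMIs of that sum, replicate 1 before replicate 2. The ectomesenchyme cells differed between the libraries. Of them, 16 of 19 in replicate 1 and 11 of 88 in replicate 2 carried at least 2 neural crest and glia markers. These markers summed to 794 and 139 CPM. Dlx5 was at 5.19 and 216 CPM in ectomesenchyme and Dlx6 at 0 and 97.3 CPM. Some paraxial mesoderm cells also carried at least 2 neural crest and glia markers, 7 of 73 and 8 of 36. The markers summed to 147 and 194 CPM there. Within paraxial mesoderm, Pax3 was at 460 and 180 CPM and Dlx2 at 5.35 and 58.8 CPM.

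The cells were chosen by the UMI counts of the gating genes, so their levels are a description and were not tested. Tcf21, at chromosome 10:22817281-22820174 on the minus strand in GRCm38, had a UMI in 82 of the 86 cells (95.3%). Tbx1, at chromosome 16:18580979-18590671 on the minus strand, had one in 68 cells (79.1%). Lhx2 was seen in 13 cells (15.1%), Msc in 12 (14.0%) and Myf5 in 3. The pair Tbx1 and Tcf21 alone accounted for 60 cells, Tcf21 with Lhx2 for 9 and Msc with Tcf21 for 7, and 80 cells carried exactly 2 of the 5 genes while 6 carried 3. A single Tbx1 UMI was all that 34 of the 68 Tbx1-positive cells had, and the largest number in 1 cell was 8. In erythroid cells of the same libraries, which should lack these factors, Tbx1 had a UMI in 0.95% of 317 cells and Tcf21 in 1.26%, and Msc, Lhx2 and Myf5 had none. The median depth was 6168 and 4636 UMIs in pharyngeal mesoderm, against 3338.5 and 5916 UMIs in the erythroid cells.

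Tbx1 stood at 218 and 293 CPM in pharyngeal mesoderm and Tcf21 at 260 and 373 CPM. Tcf21 was also present in splanchnic mesoderm, at 96.5 and 108 CPM. Splanchnic cells carried under 2 of the 5 genes by their own gate, which limits the level of these genes there. Msc was at 21.3 and 48.8 CPM in pharyngeal mesoderm and at 51.7 and 48.6 CPM in splanchnic mesoderm, so it did not set the gated cells apart from that population. It had no UMI in ectomesenchyme or cardiomyocytes and was at 2.68 and 6.92 CPM in paraxial mesoderm. Ectomesenchyme and paraxial mesoderm were also gated on under 2 of the 5 genes. Lhx2 was at 37.2 and 27.9 CPM and Myf5 at 5.32 and 6.97 CPM in pharyngeal mesoderm. The name pharyngeal mesoderm rests mainly on Tbx1 with Tcf21, which had a UMI together in 23 of 29 and 42 of 57 cells. The other gated cells, among them every cell without a Tbx1 UMI (4 and 14), entered through Msc, Lhx2 or Myf5.

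Of the genes used to gate the other populations, Foxf1, Nkx6-1 and Barx1 were absent from the pharyngeal cells by the rule. The others were lower there than in the population they gate, and some were clearly present. Meox1, a paraxial mesoderm factor, was at 95.7 and 164 CPM in pharyngeal mesoderm, at 383 and 467 CPM in paraxial mesoderm and at 67.5 and 84.7 CPM in ectomesenchyme. Osr1, a posterior second heart field factor, was at 74.4 and 83.7 CPM in pharyngeal mesoderm, against 474 and 465 CPM in splanchnic mesoderm. Tbx5 was at 26.6 and 13.9 CPM in pharyngeal mesoderm, Dlx1, Dlx2 and Dlx6 had no UMI there, and Dlx5 had none in replicate 1 and stood at 3.49 CPM in replicate 2. The plot of marker genes by population shows only the 5 genes of the pharyngeal gate.

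**Figure D1:**
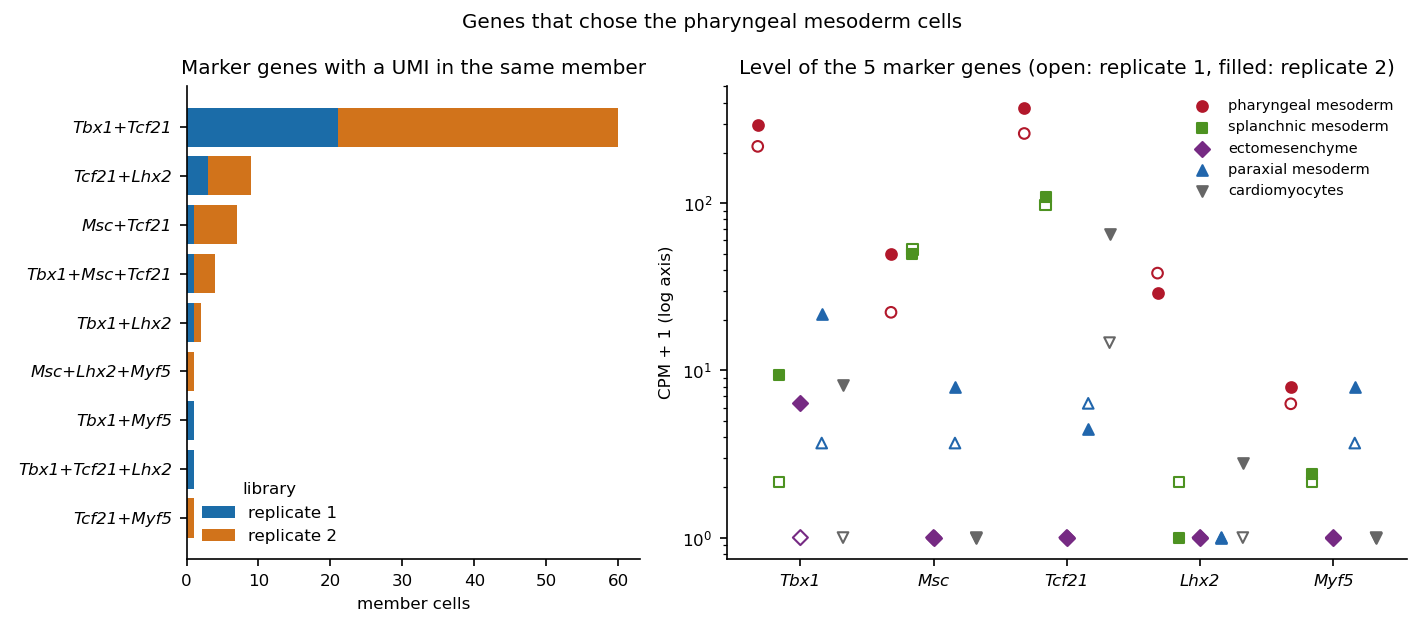
Left, number of gated cells (horizontal axis) with each combination of the 5 marker genes, coloured by library, of which Tbx1 with Tcf21 was the most frequent at 60 cells. Right, level of the 5 marker genes in each population, in CPM on a log scale with a pseudocount of 1, with 1 point per library. Tbx1 and Tcf21 are high in pharyngeal mesoderm (218 and 293 CPM, and 260 and 373 CPM), which follows from the gate, while Msc, at 21.3 and 48.8 CPM in pharyngeal mesoderm, is no higher there than in splanchnic mesoderm (51.7 and 48.6 CPM) by the mean of the libraries.

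At the edges of the rule, the highest sarcomere share of a gated cell was 0.362% in replicate 1 and 0.213% in replicate 2, and the 1 cell that only this limit left out had 2.70%. A further 49 and 36 cells carried at least 2 of the 5 genes and at least 1 of the excluded genes, most often Foxf1 in replicate 1 (30 cells). Just outside the other limit, 259 and 419 cells carried exactly 1 of the 5 genes. The gated cells were deeply read, with medians of 6168 and 4636 UMIs, against 1648 and 1888 UMIs in the cells with 1 gene and 1364 and 1505 UMIs in all cells that passed the filters.

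The pharyngeal sums held 188116 and 286852 UMIs, of 11958912 and 14131384 UMIs over the 5000 and 7497 barcodes of the libraries. The libraries shared 82 barcodes, none of them a gated cell. At least 2 markers of neural crest and glia, cardiomyocytes, foregut endoderm, endothelium, epicardium or neural tube were found in 7 of the 29 and 8 of the 57 gated cells. These 6 lists leave out ectomesenchyme, of whose markers at least 2 were found in 17 of 29 (58.6%) and 32 of 57 gated cells (56.1%). The shares were 84.2% and 67.0% in gated ectomesenchyme cells and 15.6% and 16.5% in all other cells. Paraxial mesoderm had 34.2% and 55.6%, near the pharyngeal share in replicate 2, and splanchnic mesoderm had 21.3% and 15.8%. The values given below without cells that carried markers of other types use the 6 lists, so cells with ectomesenchyme markers are kept in them. Myeloid markers were at 0 in the gated cells, hepatoblast markers summed to 1 and 2 UMIs, and foregut endoderm markers summed to 58.5 and 69.7 CPM, against 551 and 663 CPM in all other cells, with Cdh1, Foxa1, Foxa2 and Shh at 0. Endoderm and cardiomyocytes are among the other cells, and the rule itself selects against both. Also gated without Epcam, splanchnic mesoderm had 137 and 186 CPM of endoderm markers, ectomesenchyme 10.4 and 103 CPM and paraxial mesoderm 45.5 and 152 CPM. Cardiomyocyte markers summed to 26.6 and 59.3 CPM, against 588 and 644 CPM in all other cells. Under the same sarcomere limit, splanchnic mesoderm had 87.3 and 77.8 CPM, ectomesenchyme 31.1 and 32.4 CPM and paraxial mesoderm 10.7 and 76.1 CPM. The 6 sarcomere gating genes are not in that list. In the gated cells Tnni1 was at 223 and 83.7 CPM and Myl4 at 133 and 31.4 CPM. Splanchnic mesoderm had 73.5 and 73.6 CPM, and 58.6 and 37.5 CPM. Actc1, Tnnt2, Myl7 and Tnnc1 were lower than there by the mean of the libraries. Globin and other erythroid transcripts made up 1223 and 1387 CPM of the pharyngeal sums.

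Genes other than the gating genes were compared by edgeR's quasi-likelihood test on the UMI sums, with library as a block and Benjamini-Hochberg adjustment over 7057 genes. A gene is said to be higher or lower when its adjusted p was under 0.05, and fold changes are log2 values with the standard error of the fit. The p-values measure the spread that remains after the library difference shared by all populations is removed, estimated over all sums of the fit. The same pharyngeal sums enter every comparison. In bulk sums such as these, fewer cells with a transcript and fewer transcripts per cell cannot be told apart, so the number of cells with a UMI is given for the genes that matter most.

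Against splanchnic mesoderm, pharyngeal mesoderm was higher in the FGF feedback genes Spry2 and Dusp6, in the retinaldehyde-forming enzyme Rdh10 and in the homeobox gene Irx3. It was lower in the chemokine gene Cxcl13, the nuclear receptor gene Nr2f2, the ligand gene Wnt2 and the Hedgehog receptor gene Ptch1. In all, 47 genes were higher (0.666% of those tested) and 27 were lower (0.383%). DESeq2 with the same design called 24 of these 74 genes, and the fit without the library block called 19, with 17 in both.

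Spry2 encodes an inhibitor of FGF signal transduction. It stood at 74.4 and 119 CPM in pharyngeal mesoderm, where 9 of 29 and 16 of 57 cells had a UMI, against 8.04 and 6.94 CPM in splanchnic mesoderm (log2 fold change 3.62 ± 0.46, adjusted p = 3.17e-05). Dusp6, a phosphatase that acts on ERK, was at 122 and 174 CPM in pharyngeal mesoderm and at 24.1 and 19.4 CPM in splanchnic mesoderm (2.77 ± 0.30, adjusted p = 8.02e-06). For both genes the lower pharyngeal value lay well above the higher splanchnic one. Both were also called by DESeq2 and without the block.

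Edn1, which encodes the endothelin-1 ligand known for patterning the arches, had 26 UMIs in the pharyngeal sums (69.1 and 45.3 CPM) and 1 UMI in splanchnic mesoderm, a count ratio of 87.1 (95% interval 14.3 to 3570, counting error only). Pcp4, a small calmodulin-binding protein, was at 122 and 126 CPM in pharyngeal mesoderm, against 1.15 and 4.17 CPM in splanchnic mesoderm (5.54 ± 0.63, adjusted p = 9.06e-06). Grem1, a secreted BMP antagonist, was at 90.4 and 69.7 CPM in pharyngeal mesoderm and at 6.89 and 6.94 CPM in splanchnic mesoderm (3.54 ± 0.67, adjusted p = 0.00465). These levels came from few cells: Edn1 had a UMI in 5 of 29 and 8 of 57 gated cells and Pcp4 in 6 and 11.

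Prrx1, a homeobox gene of mesenchyme that was also on the ectomesenchyme and limb marker lists, was at 282 and 237 CPM in pharyngeal mesoderm, against 32.2 and 77.8 CPM in splanchnic mesoderm (2.27 ± 0.32, adjusted p = 0.000151). Ectomesenchyme markers as a whole, Prrx1 among them, summed to 686 and 676 CPM in the pharyngeal cells, against 918 and 825 CPM in the gated ectomesenchyme. Paraxial mesoderm had 455 and 602 CPM of these markers, splanchnic mesoderm 272 and 322 CPM and all other cells 370 and 406 CPM. Dlx3, Dlx4 and Six3 of that list had no UMI in the pharyngeal cells. The part of neural crest cells in these values was not tested. Dlk1, a non-canonical Notch ligand of growing mesenchyme, was at 686 and 708 CPM in pharyngeal mesoderm and at 125 and 158 CPM in splanchnic mesoderm (2.32 ± 0.36, adjusted p = 0.00056). Angpt1, an angiopoietin, was at 63.8 and 48.8 CPM and Col26a1, a collagen, at 165 and 97.6 CPM in pharyngeal mesoderm, against 9.19 and 6.94 CPM and 26.4 and 23.6 CPM in splanchnic mesoderm, with log2 fold changes of 2.80 ± 0.50 and 2.34 ± 0.40 (adjusted p = 0.00312 and 0.00239).

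The genes lower than in splanchnic mesoderm held the largest drop in Cxcl13, at 5.32 and 17.4 CPM in pharyngeal mesoderm, against 282 and 204 CPM in splanchnic mesoderm (−4.17 ± 0.42, adjusted p = 7.17e-06). Nr2f2 (COUP-TFII), a nuclear receptor of atrial and venous tissue, was at 175 and 112 CPM in pharyngeal mesoderm and at 454 and 417 CPM in splanchnic mesoderm (−1.62 ± 0.20, adjusted p = 2.37e-05). Dpysl3 was at 31.9 and 20.9 CPM, against 264 and 210 CPM in splanchnic mesoderm (−3.14 ± 0.36, adjusted p = 9.06e-06). Ifitm1 was absent from replicate 1 and at 13.9 CPM in replicate 2 of pharyngeal mesoderm, against 102 and 146 CPM in splanchnic mesoderm (−3.90 ± 0.56, adjusted p = 0.00021). All 4 genes kept their call with DESeq2 and without the block.

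The transcription factors that define cardiopharyngeal progenitors were compared next, as a list of 20 genes of which 14 had enough UMIs for a test. Against splanchnic mesoderm 1 of the 14 was higher and 1 lower, with a median log2 fold change of 0.79 beside 0.00 for all genes tested. The higher gene was Mef2c, a MADS-box factor of muscle and of the anterior second heart field, at 144 and 129 CPM in pharyngeal mesoderm, against 57.4 and 45.8 CPM in splanchnic mesoderm (1.43 ± 0.31, adjusted p = 0.014). Without the gated cells that carried markers of other cell types, the Mef2c call was lost (adjusted p = 0.338).

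Isl1, the LIM homeobox factor of the second heart field, was at 128 and 112 CPM in pharyngeal mesoderm, in 13 of 29 and 17 of 57 cells, and at 186 and 133 CPM in splanchnic mesoderm. That difference did not pass the test (−0.43 ± 0.33, adjusted p = 0.850). Against the other populations Isl1 was higher, with 5.19 and 25.2 CPM in ectomesenchyme (2.56 ± 0.51, adjusted p = 0.00472) and 0 and 17.3 CPM in paraxial mesoderm (3.89 ± 0.63, adjusted p = 0.0021). In erythroid cells 0.63% had an Isl1 UMI. Of the 14 tested factors, 2 were higher than in ectomesenchyme (Isl1 among them, median of the list 1.91 beside 0.01 for all genes) and 4 were higher than in paraxial mesoderm (Isl1, Mef2c, Hand2 and Tshz2, median 0.53 beside 0.00), and in neither comparison was one lower.

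Head muscle regulators on the same list were detected at low levels. Eya1, a transcriptional cofactor of muscle precursors, was at 53.2 and 41.8 CPM in pharyngeal mesoderm and at 2.30 and 13.9 CPM in splanchnic mesoderm (adjusted p = 0.0857). Ebf1 was at 15.9 and 73.2 CPM, against 9.19 and 16.7 CPM in splanchnic mesoderm (adjusted p = 0.280). Tlx1 had 10.6 and 17.4 CPM and Nkx2-6 10.6 and 6.97 CPM in pharyngeal mesoderm, too few UMIs for a test, while Nkx2-5, the cardiac homeobox factor, was at 10.6 and 13.9 CPM, against 29.9 and 44.4 CPM in splanchnic mesoderm, and did not pass (adjusted p = 0.237).

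Lists of anterior and posterior heart-field genes were set beside these. Of 10 tested genes of the anterior second heart field and outflow tract, only Mef2c was higher than in splanchnic mesoderm (list median −0.01), 4 were higher than in ectomesenchyme (Fgf10, Isl1, Sema3c and Bmp4, median 2.35) and 4 were higher than in paraxial mesoderm (Fgf10, Isl1, Mef2c and Hand2, median 2.08, or 1.88 with the genes that had no UMI there set to their bound). Of 14 tested genes of the posterior second heart field, 2 were lower than in splanchnic mesoderm (Nr2f2 and Wnt2) and none was higher, with a list median of −0.67. Splanchnic mesoderm was itself gated on Tbx5 and Osr1, which belong to that list and were left out of its count. Against ectomesenchyme the same list had 4 higher genes (Aldh1a2, Hoxb1, Meis2 and Gata6, median 1.03) and no lower one. Gata6 was uneven between the libraries, at 133 and 20.9 CPM in pharyngeal mesoderm, and its call was lost without the cells that carried markers of other types.

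Fgf10, the FGF ligand of the anterior second heart field, was at 58.5 and 69.7 CPM in pharyngeal mesoderm, in 8 of 29 and 10 of 57 cells. In splanchnic mesoderm it was at 32.2 and 11.1 CPM, a difference that did not pass (1.63 ± 0.57, adjusted p = 0.285). It was at 0 and 7.21 CPM in ectomesenchyme (3.49 ± 0.81, adjusted p = 0.0188), and no UMI was found in paraxial mesoderm, where the pharyngeal level was at least 6.96-fold higher than a floor of 3 counts per library. Fgf8, the other outflow ligand on the list, had a UMI in 1 of 29 and 3 of 57 gated cells and was too low to test.

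Skeletal myogenesis was barely visible. Of the 19 list genes that were not gating genes, 10 had no UMI in the pharyngeal cells, among them the determination and differentiation factors Myod1, Myog and Myf6, the satellite-cell factor Pax7, the migratory precursor factor Lbx1, the fusion factor Mymk and the embryonic myosin Myh3. With 0 counts in 188116 and 286852 UMIs, the floor of 3 counts allows 15.9 and 10.5 CPM. Of 7 genes that could be tested, 2 were higher than in splanchnic mesoderm, Mef2c and Des. Des, the muscle intermediate filament desmin, was at 53.2 and 69.7 CPM in pharyngeal mesoderm (7 of 29 and 14 of 57 cells), against 5.74 and 16.7 CPM in splanchnic mesoderm (2.53 ± 0.47, adjusted p = 0.00373) and 331 and 333 CPM in cardiomyocytes. Against paraxial mesoderm, with 61.6 and 34.6 CPM, it did not pass the test (0.32 ± 0.41, adjusted p = 0.907). Itm2a, a membrane protein of early muscle and cartilage, was at 21.3 and 10.5 CPM in pharyngeal mesoderm, lower than the 225 and 125 CPM of paraxial mesoderm (−3.71 ± 0.77, adjusted p = 0.0198).

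Retinoic acid genes showed both source and binding-protein differences. Rdh10, which makes retinaldehyde and is at chromosome 1:16105774-16133734 on the plus strand, was at 181 and 164 CPM in pharyngeal mesoderm, in 17 of 29 and 17 of 57 cells. It was at 35.6 and 20.8 CPM in splanchnic mesoderm (2.66 ± 0.33, adjusted p = 2.14e-05), at 20.8 and 5.41 CPM in ectomesenchyme (4.03 ± 0.46, adjusted p = 7.52e-06) and at 64.2 and 45.0 CPM in paraxial mesoderm (1.68 ± 0.34, adjusted p = 0.0147). The pharyngeal values lay above those of all 3 populations in both libraries. In erythroid cells 4.10% had an Rdh10 UMI.

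Aldh1a2, which turns retinaldehyde into retinoic acid, was at 106 and 80.2 CPM in pharyngeal mesoderm, in 6 of 29 and 10 of 57 cells, and at 169 and 185 CPM in splanchnic mesoderm (−0.93 ± 0.27, adjusted p = 0.135, not past the threshold). It was nearly absent elsewhere: 43 UMIs in pharyngeal mesoderm stood against 1 UMI in ectomesenchyme, a count ratio of 67.7 (11.5 to 2735), and against 2 UMIs in paraxial mesoderm, a ratio of 30.0 (7.81 to 256). Both differences passed the test (adjusted p = 1.27e-05 and 8.34e-05). Cyp26a1, which breaks retinoic acid down, was seen in only 2 and 4 cells, and Aldh1a1, Aldh1a3 and Cyp26c1 had no UMI.

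Crabp1, a cellular retinoic acid binding protein abundant in neural crest, separated the populations in opposite directions. It was at 521 and 1471 CPM in pharyngeal mesoderm and at 79.2 and 372 CPM in splanchnic mesoderm (2.25 ± 0.36, adjusted p = 0.000787). In ectomesenchyme it was at 5526 and 4165 CPM, so pharyngeal mesoderm was lower there (−2.54 ± 0.34, adjusted p = 5.91e-05). One gated cell held 182 of the 520 pharyngeal Crabp1 UMIs (35.0%), and 16.7% of erythroid cells had a Crabp1 UMI. Crabp2 (388 and 540 CPM, against 299 and 404 CPM in splanchnic mesoderm) and the receptor gene Rarb (63.8 and 41.8 CPM, against 43.6 and 25.0 CPM) did not pass. Of 7 tested genes of the list, 2 were higher than in splanchnic mesoderm (Crabp1 and Rdh10, median 0.66) and none was lower.

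**Figure D2:**
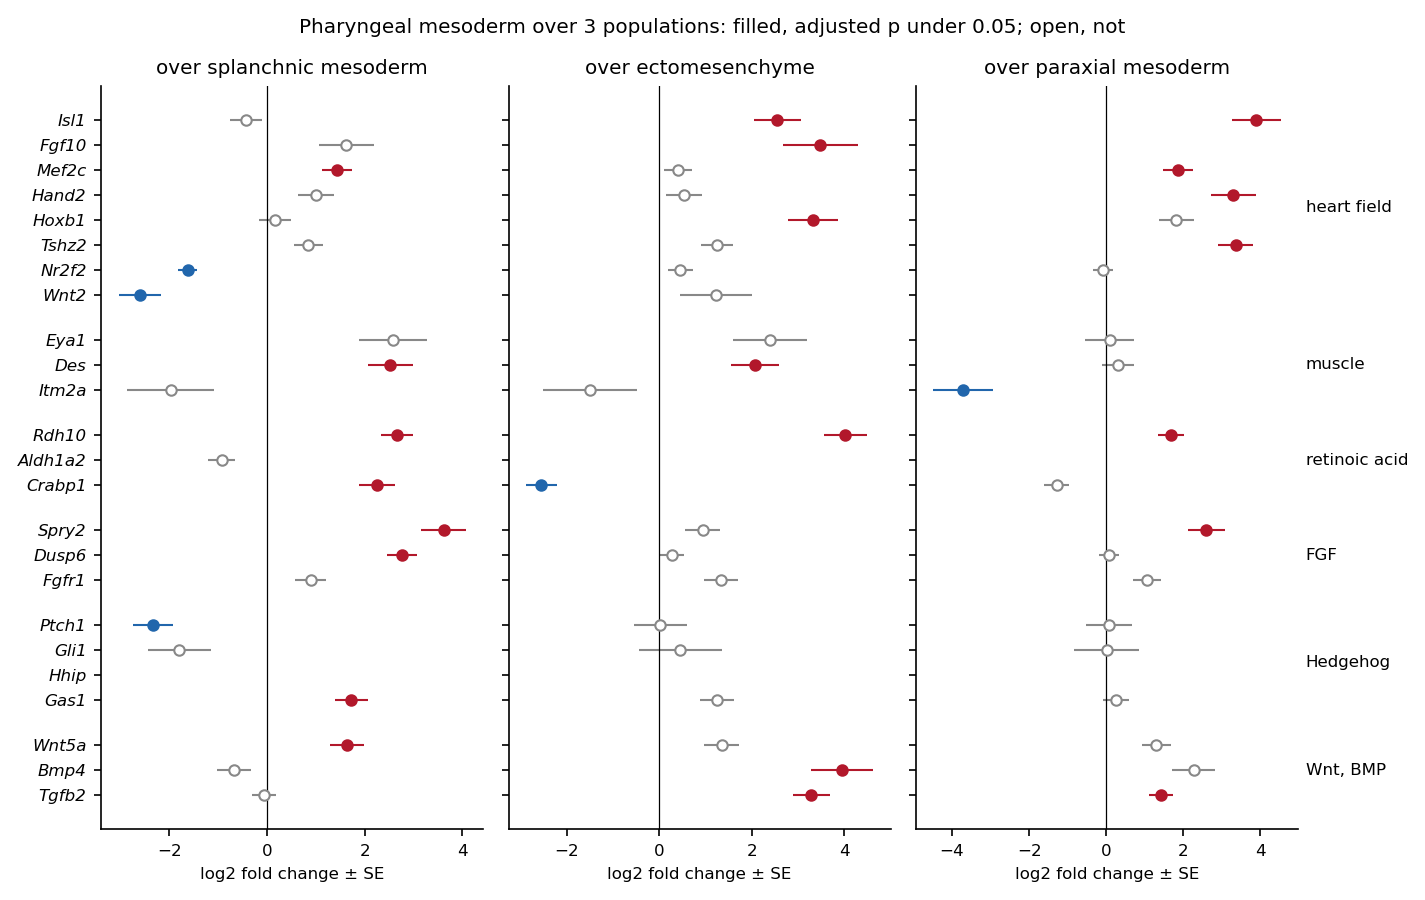
Log2 fold change of pharyngeal mesoderm over splanchnic mesoderm, ectomesenchyme and paraxial mesoderm for genes of the signalling and heart-field lists, with bars of 1 standard error of the fit and filled points for adjusted p under 0.05. Genes with fewer than 4 UMIs on either side are not drawn. Spry2 (3.62), Dusp6 (2.77) and Rdh10 (2.66) lie far to the positive side against splanchnic mesoderm, and Ptch1 (−2.34) and Wnt2 (−2.60) far to the negative side.

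The FGF list had 6 testable genes of 15. Besides Spry2 and Dusp6, the receptor gene Fgfr1 was at 133 and 94.1 CPM in pharyngeal mesoderm, against 72.3 and 48.6 CPM in splanchnic mesoderm, and did not pass (0.90 ± 0.31, adjusted p = 0.275). The list median was 1.26 against splanchnic mesoderm, 1.14 against ectomesenchyme and 0.92 against paraxial mesoderm. Spry2 was also higher than in paraxial mesoderm, at 16.1 and 13.8 CPM there (2.60 ± 0.49, adjusted p = 0.00642), whereas Dusp6 was at 137 and 145 CPM in paraxial mesoderm and at 114 and 130 CPM in ectomesenchyme, close to its pharyngeal level. Etv4 and Etv5, transcription factors induced by FGF, had UMIs in 3 and 4 and in 4 and 8 gated cells and could not be tested.

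For the Hedgehog pathway 6 of 11 genes were tested against splanchnic mesoderm, with 1 higher, 1 lower and a median of −1.18. Ptch1, the Hedgehog receptor and a target of the pathway, was at 10.6 and 27.9 CPM in pharyngeal mesoderm, against 111 and 106 CPM in splanchnic mesoderm (−2.34 ± 0.41, adjusted p = 0.00243). The targets Gli1 (0 and 24.4 CPM, against 44.8 and 55.5 CPM) and Hhip (5.32 and 6.97 CPM, against 58.6 and 33.3 CPM) did not pass (adjusted p = 0.310 and 0.133). Gas1, a co-receptor, was in the opposite direction at 117 and 132 CPM in pharyngeal mesoderm, against 52.8 and 29.2 CPM in splanchnic mesoderm (1.73 ± 0.34, adjusted p = 0.00633). Splanchnic mesoderm was gated in part on Foxf1, a Hedgehog-responsive gene, and cells with a Foxf1 UMI were kept out of the pharyngeal gate. The part of this selection in the Hedgehog values was not tested.

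Among Wnt genes, 1 of 10 tested was higher than in splanchnic mesoderm and 1 lower. Wnt5a, a non-canonical ligand needed for outflow tract growth, was at 106 and 178 CPM in pharyngeal mesoderm, against 57.4 and 33.3 CPM in splanchnic mesoderm (1.64 ± 0.34, adjusted p = 0.0129). Wnt2, a ligand of the posterior second heart field, was at 21.3 and 17.4 CPM, against 127 and 103 CPM in splanchnic mesoderm (−2.60 ± 0.44, adjusted p = 0.00146). No Notch gene of 4 tested and no BMP or TGF-beta gene of 12 tested was called against splanchnic mesoderm by edgeR or DESeq2, with 1 gene of each list at an unadjusted p under 0.05 in either tool. Bmp4, a BMP ligand, was at 58.5 and 97.6 CPM in pharyngeal mesoderm and at 111 and 129 CPM in splanchnic mesoderm, and was higher than in ectomesenchyme, which had 0 and 7.21 CPM (3.95 ± 0.68, adjusted p = 0.00122).

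Hox genes, which mark position along the body axis, were detected in the gated cells. Hoxb1, an early gene of its cluster and a posterior second heart field gene, was at 95.7 and 119 CPM in pharyngeal mesoderm, in 11 of 29 and 18 of 57 cells, and at 93.0 and 103 CPM in splanchnic mesoderm (0.17 ± 0.33, adjusted p = 0.95). It was higher than in ectomesenchyme, which had 0 and 14.4 CPM (3.33 ± 0.53, adjusted p = 0.000588), and against paraxial mesoderm it did not pass, at 40.2 and 17.3 CPM there (1.82 ± 0.45, adjusted p = 0.0732). Of 9 tested Hox genes none was called against splanchnic mesoderm by edgeR or DESeq2, with 3 and 2 at an unadjusted p under 0.05. Hoxb6 and Hoxc6, expressed more posteriorly, had no UMI in the gated cells.

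Few matrix genes or regulators of developmental timing passed the test. Of 15 tested genes of extracellular matrix and adhesion, Fn1 was higher than in splanchnic mesoderm and Vcan lower (list median 0.01), and 4 were higher than in ectomesenchyme (Col4a1, Fn1, Cdh11 and Tnc, median 0.84). Vcan (versican), a proteoglycan of the early heart and second heart field, was at 287 and 195 CPM in pharyngeal mesoderm, against 549 and 293 CPM in splanchnic mesoderm (−0.74 ± 0.18, adjusted p = 0.0324), a call lost without the cells that carried markers of other types (adjusted p = 0.212). Of 10 heterochronic regulators, Hmga2, a chromatin protein repressed by let-7 microRNAs, was lower than in splanchnic mesoderm, at 462 and 450 CPM, against 819 and 697 CPM (−0.69 ± 0.15, adjusted p = 0.013), and the list median was 0.00. The let-7 antagonist Lin28a, at 53.2 and 112 CPM in pharyngeal mesoderm and at 98.8 and 153 CPM in splanchnic mesoderm, did not pass (adjusted p = 0.587). Neither Vcan (adjusted p = 0.705) nor Hmga2 (adjusted p = 0.400) was called by DESeq2.

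Against ectomesenchyme, the mesenchyme that surrounds the mesodermal core of the arches, 114 genes were higher in pharyngeal mesoderm (1.62% of those tested) and 47 lower (0.666%). Higher genes included the urea-cycle enzyme gene Arg1, the retinoic acid enzymes Rdh10 and Aldh1a2, the growth factor genes Mdk, Tgfb2 and Bmp4, and Hoxb1. Lower genes included the crest factors Tfap2a and Tfap2b, the retinoic acid-binding protein gene Crabp1 and the secreted protein gene Cthrc1. DESeq2 called 50 of these 161 genes and the fit without the library block 42, with 33 in both.

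Arg1 was at 659 and 628 CPM in pharyngeal mesoderm and at 0 and 25.2 CPM in ectomesenchyme (5.05 ± 0.32, adjusted p = 2.75e-10). Pcp4, at 122 and 126 CPM in pharyngeal mesoderm, had 1 UMI in ectomesenchyme, a count ratio of 92.9 (16.0 to 3729). Apoe, an apolipoprotein, was at 191 and 119 CPM in pharyngeal mesoderm, against 5.19 and 12.6 CPM in ectomesenchyme (3.90 ± 0.59, adjusted p = 0.00031). In each of these the pharyngeal values were several times the ectomesenchyme values in both libraries.

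Mdk, a heparin-binding growth factor (midkine), was among the most abundant differing transcripts, at 4088 and 3552 CPM in pharyngeal mesoderm and at 1546 and 1718 CPM in ectomesenchyme (1.19 ± 0.13, adjusted p = 6.76e-06). In splanchnic mesoderm Mdk was at 4117 and 3611 CPM, with a fold change of 0.00 ± 0.12. Tgfb2, a TGF-beta ligand, was at 133 and 119 CPM in pharyngeal mesoderm, against 15.6 and 10.8 CPM in ectomesenchyme (3.29 ± 0.40, adjusted p = 2.22e-05). Igfbp5, a binding protein for insulin-like growth factors, was at 856 and 523 CPM in pharyngeal mesoderm, against 156 and 68.5 CPM in ectomesenchyme (2.72 ± 0.31, adjusted p = 7.52e-06).

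On the ectomesenchyme side, Tfap2b, an AP-2 factor of neural crest, was at 5.32 and 20.9 CPM in pharyngeal mesoderm, against 581 and 148 CPM in ectomesenchyme (−4.36 ± 0.72, adjusted p = 0.000812). Tfap2a had 1 UMI in pharyngeal mesoderm and 44 in ectomesenchyme, a count ratio of 28.0 for ectomesenchyme over pharyngeal mesoderm (4.76 to 1129). Cthrc1, a collagen-associated secreted protein, had 1 UMI in pharyngeal mesoderm and 82 in ectomesenchyme (ratio 52.1 for ectomesenchyme over pharyngeal mesoderm, 9.09 to 2083). Ncl (nucleolin) was at 3737 and 2883 CPM in pharyngeal mesoderm and at 5121 and 4783 CPM in ectomesenchyme (−0.61 ± 0.10, adjusted p = 0.000769), and Ccnd1 (cyclin D1) at 229 and 157 CPM, against 581 and 357 CPM (−1.25 ± 0.22, adjusted p = 0.00194). Ncl and Ccnd1 were picked after their values were seen, and Mdk and Igfbp5 above also fell outside the rule for named genes. Only 19 ectomesenchyme cells in replicate 1 stand behind these values. They differed from those of replicate 2 in neural crest and glia markers and in Dlx5 and Dlx6, as given above.

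Paraxial mesoderm was the closest population by the number of calls, with 28 genes higher in pharyngeal mesoderm (0.397%) and 7 lower (0.0992%). Higher genes included the heart-field factors Isl1, Hand2, Mef2c and Tshz2, the ligand Fgf10 and the enzyme Aldh1a2, and lower genes the imprinted gene Mest and the nuclear receptor gene Nr2f1. DESeq2 called 16 of these 35 genes and the fit without the block 9, with 8 in both. The count of calls also depends on the depth of the population sums, so the order of the comparisons by calls is a description.

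Tshz2, a zinc-finger factor, was at 175 and 122 CPM in pharyngeal mesoderm, in 12 of 29 and 21 of 57 cells, against 18.7 and 10.4 CPM in paraxial mesoderm (3.36 ± 0.44, adjusted p = 0.00012). Hand2, a bHLH factor of the heart field and arches, was at 63.8 and 62.8 CPM in pharyngeal mesoderm, against 2.68 and 10.4 CPM in paraxial mesoderm (3.29 ± 0.58, adjusted p = 0.00359). Cldn11, a claudin, had 26 UMIs in pharyngeal mesoderm against 1 in paraxial mesoderm, a count ratio of 36.3 (5.96 to 1487). Tshz2 kept its call with DESeq2 and without the block, and Hand2 kept it without the block.

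Mest was at 1180 and 1213 CPM in pharyngeal mesoderm and at 2524 and 2329 CPM in paraxial mesoderm (−1.04 ± 0.16, adjusted p = 0.000944). Nr2f1 (COUP-TFI) was at 53.2 and 55.8 CPM in pharyngeal mesoderm, against 233 and 170 CPM in paraxial mesoderm (−1.88 ± 0.31, adjusted p = 0.0021). Gja1, which encodes the gap junction protein connexin 43, was at 101 and 97.6 CPM, against 211 and 235 CPM in paraxial mesoderm (−1.20 ± 0.24, adjusted p = 0.0147). Cflar, a regulator of caspase-8, was the 1 gene lower than in all 3 populations, at 15.9 and 13.9 CPM in pharyngeal mesoderm, against 40.2 and 142 CPM in splanchnic mesoderm, 67.5 and 114 CPM in ectomesenchyme and 72.3 and 322 CPM in paraxial mesoderm. Its level differed between the libraries by more than 1.5 times in each of those populations.

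A group of 9 genes (0.128% of those tested) was higher in pharyngeal mesoderm than in splanchnic mesoderm, ectomesenchyme and paraxial mesoderm alike: Gm266, Irx3, Alcam, Cecr2, 3632451O06Rik, Rdh10, Hotairm1, Fn1 and Arg1. The gating genes were not among the genes tested. The unnamed gene models Gm266 and 3632451O06Rik fell outside the rule for named genes and are named because the group is small. The 3 comparisons share the pharyngeal sums, so the count is a description.

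Gm266, a predicted gene at chromosome 12:111484609-111485823 on the minus strand, was at 165 and 213 CPM in pharyngeal mesoderm, where 15 of 29 and 32 of 57 cells had a UMI. It was at 14.9 and 27.8 CPM in splanchnic mesoderm (3.16 ± 0.35, adjusted p = 8.02e-06), at 0 and 12.6 CPM in ectomesenchyme (4.46 ± 0.47, adjusted p = 5.67e-06) and at 8.03 and 27.7 CPM in paraxial mesoderm (3.43 ± 0.43, adjusted p = 7.7e-05). It was the 1 gene of the 9 that also passed in all 3 comparisons without the library block, and with Irx3 it was 1 of 2 that did so with DESeq2. In erythroid cells 0.95% had a Gm266 UMI. Gm266 overlaps 1 annotated gene on its own strand, and the part of that gene in its UMIs was not tested.

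Irx3, an Iroquois homeobox factor at chromosome 8:91798525-91802067 on the minus strand, was at 181 and 97.6 CPM in pharyngeal mesoderm, in 15 of 29 and 13 of 57 cells. It was at 12.6 and 15.3 CPM in splanchnic mesoderm, 15.6 and 12.6 CPM in ectomesenchyme and 18.7 and 13.8 CPM in paraxial mesoderm, with log2 fold changes of 3.30 ± 0.45, 3.15 ± 0.52 and 3.05 ± 0.51 (adjusted p = 8.61e-05, 0.000812 and 0.00245). The lower of the pharyngeal values was above every value of the other populations. Arg1, at chromosome 10:24915221-24927484 on the minus strand, had a UMI in 24 of 29 and 34 of 57 cells. It was at 659 and 628 CPM in pharyngeal mesoderm, against 379 and 353 CPM in splanchnic mesoderm (0.84 ± 0.18, adjusted p = 0.014) and 228 and 159 CPM in paraxial mesoderm (1.71 ± 0.21, adjusted p = 7.7e-05).

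Hotairm1, a long noncoding RNA between the first genes of the HoxA cluster at chromosome 6:52156902-52162119 on the plus strand, was at 128 and 150 CPM in pharyngeal mesoderm, in 10 of 29 and 20 of 57 cells. It was at 57.4 and 58.3 CPM in splanchnic mesoderm (1.29 ± 0.28, adjusted p = 0.0155), 15.6 and 14.4 CPM in ectomesenchyme and 32.1 and 20.8 CPM in paraxial mesoderm. It overlaps 3 annotated genes on its own strand and 1 on the opposite strand, and whether counting used strand is not stated, so its reads cannot be told from those of its neighbours. Fn1 (fibronectin), the matrix glycoprotein, was at 229 and 157 CPM in pharyngeal mesoderm, in 20 of 29 and 24 of 57 cells, against 75.8 and 87.5 CPM in splanchnic mesoderm (1.23 ± 0.30, adjusted p = 0.0398). Without the gated cells that carried markers of other types the splanchnic call of Fn1 was lost (adjusted p = 0.141).

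The remaining genes of the group rested on few cells. Alcam, an adhesion molecule also high in cardiomyocytes (178 and 66.7 CPM), was at 117 and 59.3 CPM in pharyngeal mesoderm, with 39 UMIs in 5 of 29 and 4 of 57 cells, against 21.8 and 12.5 CPM in splanchnic mesoderm. Without the cells that carried markers of other types its calls were lost against splanchnic mesoderm (adjusted p = 0.209) and paraxial mesoderm (adjusted p = 0.283). Cecr2, a bromodomain protein of chromatin remodelling complexes, was at 74.4 and 188 CPM in pharyngeal mesoderm, against 35.6 and 36.1 CPM in splanchnic mesoderm (1.85 ± 0.35, adjusted p = 0.00446), and 28 of its 68 pharyngeal UMIs (41.2%) came from 1 cell. The gene model 3632451O06Rik was at 122 and 59.3 CPM in pharyngeal mesoderm and at 369 and 438 CPM in cardiomyocytes. It overlaps 3 annotated genes on its own strand and 1 on the opposite strand, whose part in its UMIs was not tested.

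**Figure D3:**
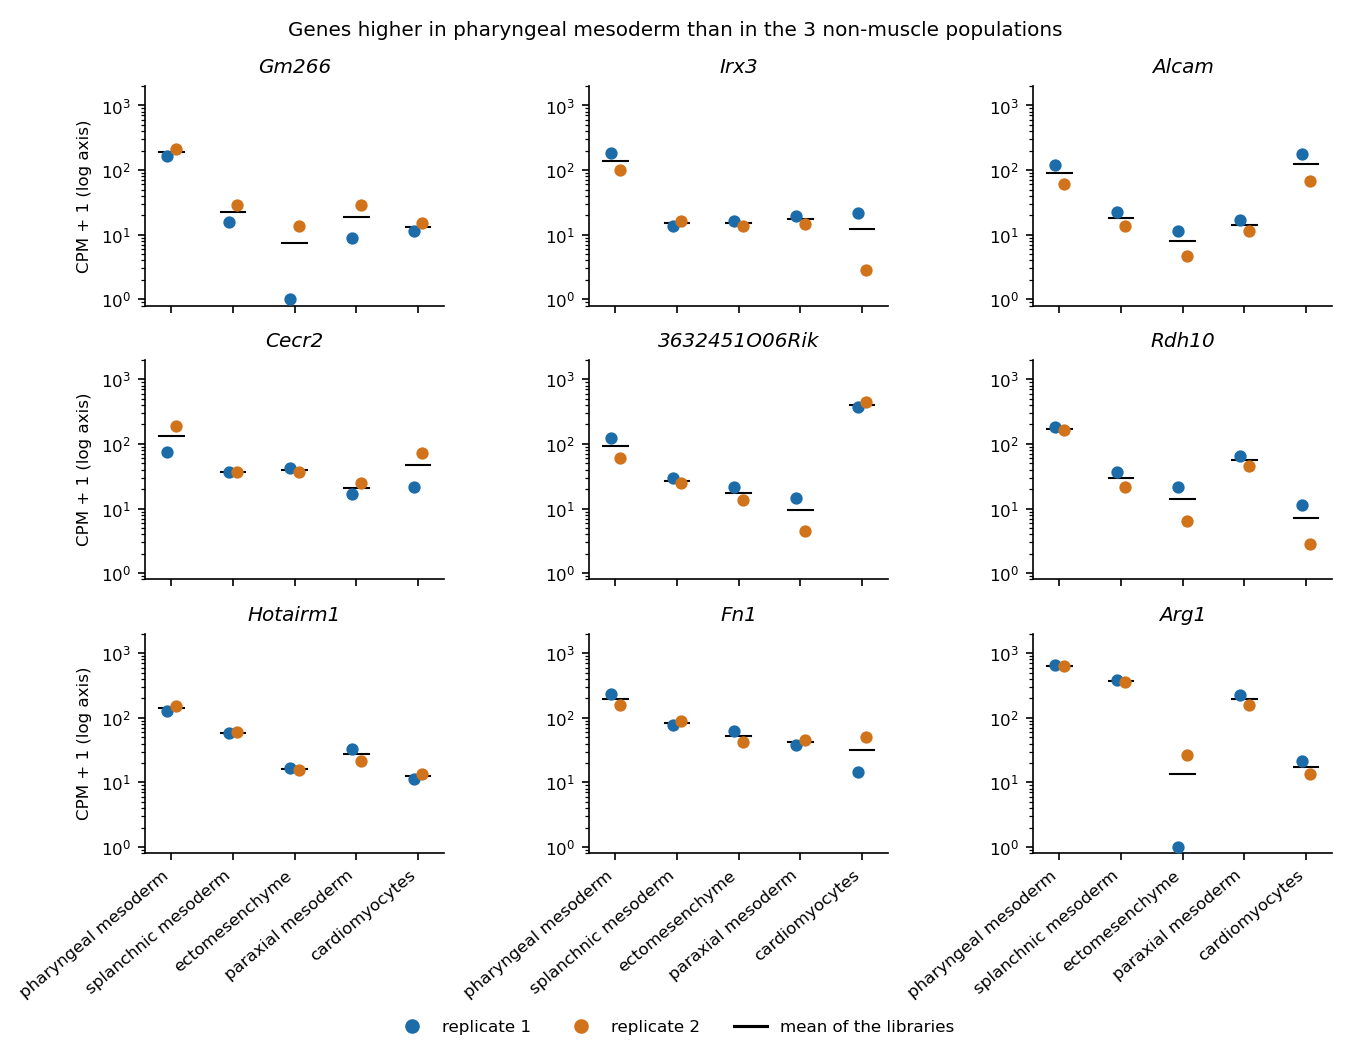
Levels of the 9 genes that were higher in pharyngeal mesoderm than in splanchnic mesoderm, ectomesenchyme and paraxial mesoderm, in CPM on a log scale with a pseudocount of 1, with 1 point per library and population. The pharyngeal points of Gm266 (165 and 213 CPM) and Irx3 (181 and 97.6 CPM) lie above all points of the other populations drawn.

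Cardiomyocytes differed in far more genes, with 779 higher (11.0%) and 900 lower (12.8%) in pharyngeal mesoderm. The sarcomere and muscle genes Mybpc3, Cnn1 and Ldb3 had no UMI in pharyngeal mesoderm, against 471 and 454 CPM, 574 and 544 CPM, and 348 and 301 CPM in cardiomyocytes. Of 9 tested Hox genes 8 were higher in pharyngeal mesoderm (median 2.86 beside 0.03 for all genes tested), and of 7 retinoic acid genes 5 were higher (median 2.38). Of the cell cycle lists, 15 of 20 S-phase genes (among them Mcm2, Mcm5 and Pcna) and 8 of 22 genes of G2 and M phase (among them Top2a and Cdc20) were higher than in cardiomyocytes, with medians of 1.08 and 0.61. Against the other 3 populations edgeR and DESeq2 called none of these 42 cell cycle genes, and for S phase none reached an unadjusted p under 0.05 in either tool. For G2 and M phase, 4, 6 and 4 genes reached it against splanchnic mesoderm, ectomesenchyme and paraxial mesoderm by edgeR, and 1, 1 and 0 by DESeq2.

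Within pharyngeal mesoderm, the 68 cells with a Tbx1 UMI (25 and 43) were set against the 18 without (4 and 14). A cell without a Tbx1 UMI may still express the gene, and it carried at least 2 of the other 4 genes by the rule, in most cases Tcf21. The Tbx1-positive sums held 162884 and 228588 UMIs, against 25232 and 58264 UMIs in the Tbx1-negative sums, where 1 UMI was worth 39.6 and 17.2 CPM and 1 cell of replicate 1 held 42.0% of its UMIs. The median depth was 6168 and 4759 UMIs in Tbx1-positive cells, against 6861 and 3298.5 UMIs in Tbx1-negative cells. Of 6882 genes tested, 8 were higher in Tbx1-positive cells (0.116%) and 5 lower (0.0727%). DESeq2 called 4 of the 13 (Crabp1, Prtg, Smc4 and Map1b) and gave 7 no adjusted p. The fit without the library block called 0, with 449 genes at an unadjusted p under 0.05 there.

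Genes higher in Tbx1-positive cells were Crabp1, Prtg, Mest, Smc4, Wnt5a, Arg1, Prrx1 and Rdh10. Wnt5a had 71 UMIs in 31 Tbx1-positive cells (123 and 223 CPM) and none in Tbx1-negative cells, at least 2.03-fold higher than the floor. Rdh10 had 80 UMIs in 33 Tbx1-positive cells (203 and 206 CPM), against 1 UMI in Tbx1-negative cells (ratio 17.1, 2.98 to 682). Prrx1 was at 319 and 284 CPM in Tbx1-positive cells and at 39.6 and 51.5 CPM in Tbx1-negative cells (2.91 ± 0.64, adjusted p = 0.0255). Prtg (protogenin), a surface receptor of early mesoderm, was at 510 and 332 CPM, against 0 and 103 CPM (2.60 ± 0.50, adjusted p = 0.00555), and Arg1 at 737 and 709 CPM, against 159 and 309 CPM (1.60 ± 0.34, adjusted p = 0.0193). In all of these both Tbx1-positive values lay above both Tbx1-negative values.

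Genes lower in Tbx1-positive cells were Alcam, Map1b, Socs2, Gucy1b3 and AC122428.3. Alcam was at 12.3 and 35.0 CPM in Tbx1-positive cells, against 793 and 154 CPM in Tbx1-negative cells (−3.68 ± 0.57, adjusted p = 0.000269), where 4 of the 18 cells held its 29 UMIs. Map1b, a microtubule protein abundant in neurons, was at 79.8 and 65.6 CPM, against 1466 and 103 CPM, and 46.5% of its Tbx1-negative UMIs came from 1 cell. All 14 Tbx1-negative UMIs of AC122428.3 came from 1 cell. These lower genes thus rested mainly on the 4 Tbx1-negative cells of replicate 1. Of the sarcomere gating genes, Myl4 was at 793 CPM, Tnni1 at 674 CPM, Myl7 at 238 CPM and Tnnt2 at 79.3 CPM in those cells. Tbx1-negative cells of replicate 2 had 17.2, 0, 51.5 and 0 CPM. Actc1 (39.6 and 51.5 CPM) and Tnnc1 (0 and 0 CPM) were not higher in replicate 1. Tbx5 was at 159 and 17.2 CPM, and Gata6 had 14 and 0 UMIs. The identity of these cells was not tested.

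**Figure D4:**
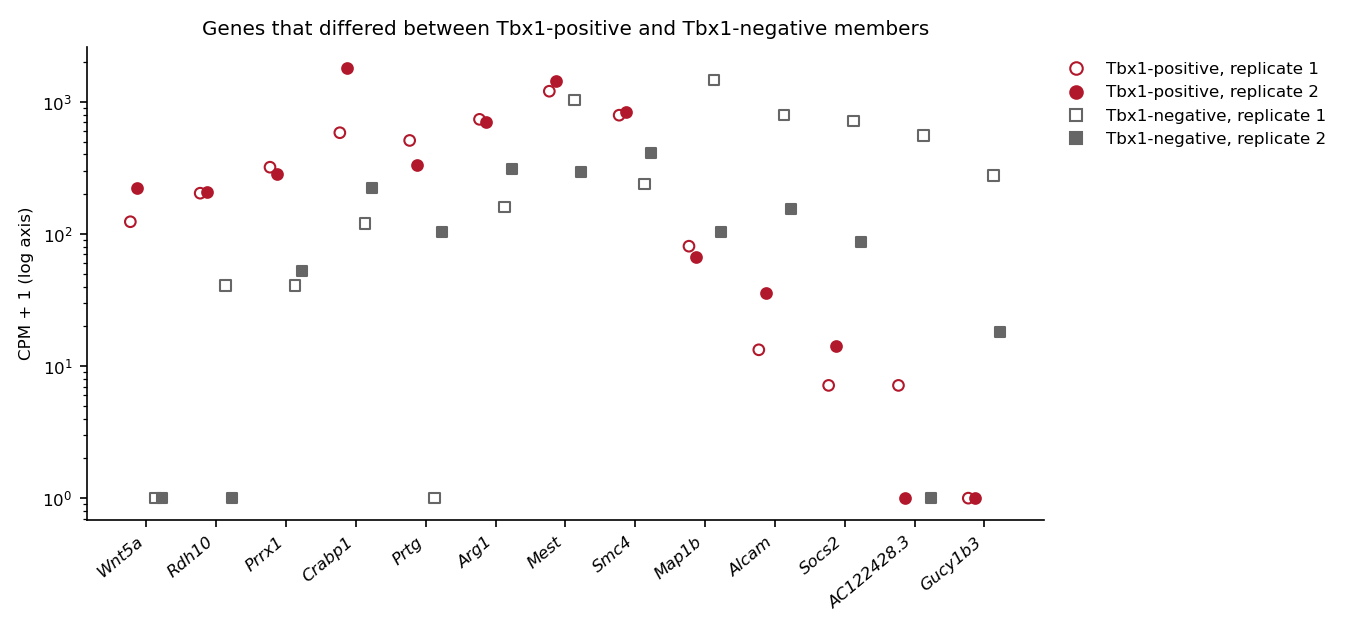
Levels of the genes that differed between gated cells with and without a Tbx1 UMI, in CPM on a log scale with a pseudocount of 1, with 1 point per library. Rdh10 (203 and 206 CPM in Tbx1-positive cells) and Wnt5a (123 and 223 CPM) separate the groups in both libraries, and the points of Alcam and Map1b in Tbx1-negative cells lie far apart between the libraries.

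Of the lists compared over this split, retinoic acid had 2 of 7 genes higher in Tbx1-positive cells (Crabp1 and Rdh10), Wnt 1 of 10 (Wnt5a) and the heterochronic regulators 1 of 10 (Prtg), with none lower. No gene of the cardiopharyngeal factors, the heart-field lists, skeletal myogenesis, Hox, FGF, BMP and TGF-beta, Hedgehog or Notch was called by edgeR or DESeq2. Between 0 and 4 genes of each of those lists reached an unadjusted p under 0.05 by edgeR and between 0 and 5 by DESeq2. No cell cycle gene was called by either tool. An unadjusted p under 0.05 was reached by 5 of 20 S-phase genes in both tools. For G2 and M phase, 7 of 22 genes reached it by edgeR and 3 by DESeq2. The list medians were −0.25 for S phase and 0.75 for G2 and M phase. The median log2 fold change of all genes tested was 0.16 in this comparison, so small shifts of a list to the positive side are near that of all genes.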

How the data were processed

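The deposited files hold raw UMI counts per gene and barcode for each Drop-seq library. The authors aligned to mm10 and used Scanpy, per the submitters' processing notes, with the aligner and its settings not given in the sources used here. Members, gene lists and tests were chosen with earlier results of these data known.

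UMI counts were summed per library and gated population, and tested with edgeR 4.0.16 (R 4.3.3): TMM scaling, filterByExpr, glmQLFit and glmQLFTest with terms for population and library, two-sided, over 10 sums (12 for the Tbx1 split), Benjamini-Hochberg adjusted over all genes tested. The 27 gating genes were left out. Residual degrees of freedom were 4 in the fit of 10 sums, and edgeR's prior over genes added 19.98. Library was a block because all populations of a library share its embryos and day; deviations of the libraries correlated between populations at 0.435 to 0.654 over 1817 genes. DESeq2 1.42.0 was the alternative tool. The fit was also run on simulated counts with a common spread and no library effect apart from depth. Such counts cannot show how the fit behaves where libraries differ, as they did here. Scrublet's own threshold marked 0 and 1 cells, so it had not worked, and no doublets were removed; 2 and 3 gated cells were among the highest 5% of scores.

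For each comparison the text names the 10 largest changes per direction that passed, moved alike in both libraries and reached 50 CPM (5 for cardiomyocytes and the Tbx1 split), or part of them, the list members described and the genes higher than 3 populations. Mdk, Igfbp5, Ncl and Ccnd1 are named outside this rule. Intervals and floors (3 counts per library) cover counting error only. Coordinates are from GENCODE M21 (GRCm38) by gene ID. Some members of the gene lists are counted but not reported here by name.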

Additional observations from a re-analysis of the deposited data

How the results depend on the processing

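Counts of called genes moved with depth, tool, block, the low-count filter and the gate, and the cause was not tested beyond the construction of each setting. Thinning cells to 1000 UMIs left 2013 genes to test and 12 calls against splanchnic mesoderm (74 as reported), 19 against ectomesenchyme (161), 5 against paraxial mesoderm (35), 385 against cardiomyocytes (1679), 1 for the Tbx1 split (13) and 0 for genes higher than all 3 populations by edgeR (9; 10 at an unadjusted p under 0.05). DESeq2 called 24, 50, 16, 768, 4 and 2, and the fit with no replicate block, which ignores the library, called 19, 42, 9, 913, 0 and 1. With no low-count filter there were 133, 259, 93, 33 and 18 calls (splanchnic mesoderm, ectomesenchyme, paraxial mesoderm, Tbx1 split, all 3), and the median of all genes against splanchnic mesoderm moved to −0.14. Cells of at least 800 genes gave 23 calls for the Tbx1 split, and removing the highest 5% of Scrublet scores gave 21. Taking every Tbx1-positive cell, a gate chosen after seeing the data, gave 169 calls against splanchnic mesoderm. The share of calls that were higher moved against ectomesenchyme to 84.2% with thinning, 90.5% with no block and 60.2% with no filter (70.8% as reported), against paraxial mesoderm to 40.0% and against cardiomyocytes to 34.5% with thinning (80.0% and 46.4%). The share of gated cells (0.937%) was 1.40% among cells of at least 800 genes, 0.298% after thinning, 0.100% without Tcf21 in the gate, 0.0653% for at least 3 of the 5 genes, and 0.718% to 1.16% with 1 replicate left out; the last 2 gates held too few cells for a fit. Of 137 called values of named genes, DESeq2 kept 75 and lost 55, the fit with no block kept 56 and lost 81, and dropping the cells with markers of other types, also chosen after seeing the data, kept 106 and lost 18; thinning kept 25 and lost 40. Leaving out a library, which gives values with no test, moved 51 called values by more than 1 standard error and 68 by less without replicate 1, and 53 by more and 55 by less without replicate 2, with no change of sign. Values that did not pass turned sign for Dach1 (0.081 with both Tbx1 and Tcf21 required, 0.30 without the cells with other markers), Tgif1 (−0.13), Bmp2 (0.56) and Sfrp1 (0.11) with all Tbx1-positive cells, Prtg (−0.082) with thinning and Col1a1 (−0.24) without the cells with other markers, all against splanchnic mesoderm. With 29 and 57 cells, genes below about 3 UMIs per library could not be read.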
